A study of Homo sapiens with 33 samples.

Results

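The kidney and intermediate mesoderm regulators described here are 7 transcription factors and cofactors, PAX2, PAX8, WT1, OSR1, SIX2, EYA1 and SALL1. They were chosen by name, 7 of the 35718 gene names in the expression table, and 45 of the 153956 promoter windows in the chromatin table carry their names. The cells were H9, an established human embryonic stem cell (ESC) line, in 4 genotypes that differ at EZH2, the catalytic subunit of Polycomb repressive complex 2. EZH2+/+ cells were the unedited line. EZH2-/+ cells carried 1 allele disrupted with CRISPR/Cas9. EZH2-/- cells carried disruptions of both alleles and were kept without doxycycline. EZH2-/- +EZH2 cells were the same kind of null cells in which a piggyBac transgene encoding EZH2 was induced with doxycycline at 1 µg/ml. The null cells were made by editing again an EZH2-/+ line that already carried this transgene. The study also made null lines from which it was removed, and the labels do not say which kind was sequenced. The edited lines are clonal, and a difference between edited cells and EZH2+/+, or between null and EZH2-/+ cells, cannot be told apart from a difference between clones by these data. RNA-seq gave 3 libraries per genotype, and ChIP-seq gave 1 value per genotype for H3K27me3, H3K4me3, H3K27ac, H3K4me1 and input, plus EZH2 binding in EZH2+/+ cells alone. For both assays, cells positive for the surface marker SSEA4 had been sorted. On GRCh38 the genes lie at chr10:100735603-100829941 (PAX2, ENSG00000075891), chr2:113215997-113278950 (PAX8, ENSG00000125618), chr11:32387775-32435630 (WT1, ENSG00000184937), chr2:19351485-19358653 (OSR1, ENSG00000143867), chr2:45005161-45009430 (SIX2, ENSG00000170577), chr16:51135975-51151367 (SALL1, ENSG00000103449) and on chromosome 8 (EYA1, ENSG00000104313).

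The kidney arises from intermediate mesoderm, a strip of tissue between the somites and the lateral plate. OSR1 is one of the earliest genes active there. PAX2 and PAX8 are paired-box factors that specify the nephric lineage, EYA1 is a cofactor and phosphatase that binds homeodomain factors such as SIX2, SIX2 keeps nephron progenitors in an undifferentiated state, SALL1 is a zinc-finger factor of the same progenitors, and WT1 is a zinc-finger factor of the metanephric mesenchyme and later of podocytes. Polycomb repressive complex 2 places H3K27me3, a mark of silent developmental genes, and in ESCs many such promoters also carry H3K4me3, a mark of promoters that are active or poised. H3K27ac marks active promoters and enhancers, and H3K4me1 is common at enhancers.

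The 4 stretches that follow are printed because they lie in windows that carried H3K27me3 in EZH2+/+ cells, and another, from a WT1 start site without the mark, stands beside them. They are RefSeq sequences on GRCh38.p14, 250 bases directly upstream of a start site, 5′ to 3′ on the gene's strand, with every CG dinucleotide in capitals. Promoters of 4 of the 7 members were found in the RefSeq table, and those of OSR1, EYA1 and SALL1 were not used here. They lie at chr2:45009453-45009702 (SIX2, minus strand), chr2:113278922-113279171 (PAX8, minus strand), chr10:100735146-100735395 (PAX2, plus strand), chr11:32430814-32431063 (WT1, minus strand, a start site inside the gene) and chr11:32400401-32400650 (WT1, minus strand, a start site further downstream). The PAX2 stretch and both WT1 stretches lie in other windows of these genes than the ones whose changes are described further on, and the marked 2 had 46.4 (PAX2) and 46.6 RPM (WT1) of H3K27me3 in their own windows.
SIX2: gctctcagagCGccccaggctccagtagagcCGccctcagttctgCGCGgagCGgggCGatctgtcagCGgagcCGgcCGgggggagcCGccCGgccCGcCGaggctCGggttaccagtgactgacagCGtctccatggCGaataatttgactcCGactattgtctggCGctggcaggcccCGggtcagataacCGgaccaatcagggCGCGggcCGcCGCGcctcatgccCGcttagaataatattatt
PAX8: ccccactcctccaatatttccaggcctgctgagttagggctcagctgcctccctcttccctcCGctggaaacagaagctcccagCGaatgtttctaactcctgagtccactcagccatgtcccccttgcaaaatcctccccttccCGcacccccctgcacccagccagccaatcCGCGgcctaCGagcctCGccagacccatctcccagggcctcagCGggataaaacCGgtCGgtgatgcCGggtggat
PAX2: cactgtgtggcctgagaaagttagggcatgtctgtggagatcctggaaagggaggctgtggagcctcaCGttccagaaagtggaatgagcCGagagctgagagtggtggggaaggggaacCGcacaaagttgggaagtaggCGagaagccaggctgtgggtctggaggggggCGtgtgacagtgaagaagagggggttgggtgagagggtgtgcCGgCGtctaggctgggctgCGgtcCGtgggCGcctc
WT1 with the mark: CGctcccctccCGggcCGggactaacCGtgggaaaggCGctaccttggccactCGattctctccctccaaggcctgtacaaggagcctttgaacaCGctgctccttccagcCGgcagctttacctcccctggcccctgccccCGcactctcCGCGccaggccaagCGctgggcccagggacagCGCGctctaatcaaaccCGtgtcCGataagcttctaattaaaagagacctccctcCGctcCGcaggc
WT1 without the mark: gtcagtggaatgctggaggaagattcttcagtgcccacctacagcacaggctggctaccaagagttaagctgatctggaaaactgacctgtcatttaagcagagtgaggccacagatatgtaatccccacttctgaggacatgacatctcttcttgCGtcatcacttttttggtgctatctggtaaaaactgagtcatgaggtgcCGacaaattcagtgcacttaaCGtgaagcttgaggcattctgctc
The SIX2 promoter held 26 CG dinucleotides and a GC content of 65.6%, and 19.6% of 35116 promoters of the same length held as many. The marked WT1 stretch held 18 (as many in 36.8% of promoters), PAX8 held 11 (50.3%) and PAX2 held 10 (52.2%). The unmarked WT1 stretch held 3, which 77.1% of promoters reach, and its GC content was 46.8%. CG content thus ranged from the upper part of all promoters (SIX2) to the middle (PAX8 and PAX2) among stretches in marked windows. Of 2 short motifs searched on both strands, TATAAA was in none of the members' 8 promoters and in 10.7% of all promoters, and CCAAT was in those of SIX2 and PAX8 and in 32% of all promoters.

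EZH2 itself followed the labels. Its RNA level in RPM (reads scaled to the size of the library) was 59.5, 63.3 and 68.6 in the EZH2+/+ libraries, 45.7, 52.3 and 55.4 in EZH2-/+, 8.65, 9.68 and 11.5 in EZH2-/-, and 256, 271 and 385 in EZH2-/- +EZH2. The restored cells therefore held more EZH2 RNA than the unedited line, by 2.23 on the log2 scale (SE 0.17, adjusted p = 2.8e-05, limma). Libraries held 25019066 to 56845609 reads, so that 1 read was worth 0.0176 to 0.0400 RPM, and the members other than SALL1 and EYA1 were counted from few reads. The summed RPM of 10 pluripotent cell markers was 2488 to 3090 in EZH2+/+, 3274 to 4090 in EZH2-/+, 3706 to 4244 in EZH2-/- and 3439 to 4173 in EZH2-/- +EZH2, and each of the 10 had reads in every genotype. Markers of other cell types were present as well. Primitive streak and early mesoderm markers summed to 59.4 to 96.7 RPM in EZH2+/+, 60.5 to 132 in EZH2-/+, 214 to 294 in EZH2-/- and 86.1 to 224 in restored cells. Definitive endoderm markers summed to 24.3 to 51.2, 16.2 to 458, 166 to 470 and 26.0 to 56.2 RPM in the same order, neuroectoderm markers to 207 to 269, 159 to 219, 315 to 354 and 179 to 292, and fibroblast markers to 290 to 366, 248 to 305, 297 to 592 and 234 to 311. Abundant markers weigh most in such sums. In bulk RNA, more cells of another type and more RNA per cell cannot be told apart.

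The members differed in how many reads stood behind them. RPM does not account for gene length, so the values are compared between libraries and not between genes. SALL1 had 35.4 to 105 RPM over the 12 libraries and EYA1 1.05 to 4.89 RPM. SIX2, PAX2, PAX8 and OSR1 had means over the 12 libraries of 0.712, 0.405, 0.196 and 0.106 RPM, and WT1 had a mean of 0.0373 RPM, near the value given to a gene without a read. A gene entered the tests if its mean reached 0.1 RPM. WT1 did not. OSR1 did only through its EZH2-/- libraries, and PAX2 and PAX8 only through their EZH2+/+ libraries, so the filter itself favours a difference of these 3 genes and their fits are given as a description. SIX2, EYA1 and SALL1 reached it without the genotype in which they were highest. The scale of every fitted change below is log2(RPM + 0.1), which understates changes of genes at these levels, and adjusted p-values are from limma with Benjamini-Hochberg adjustment over 20689 genes.

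**Figure D1:**
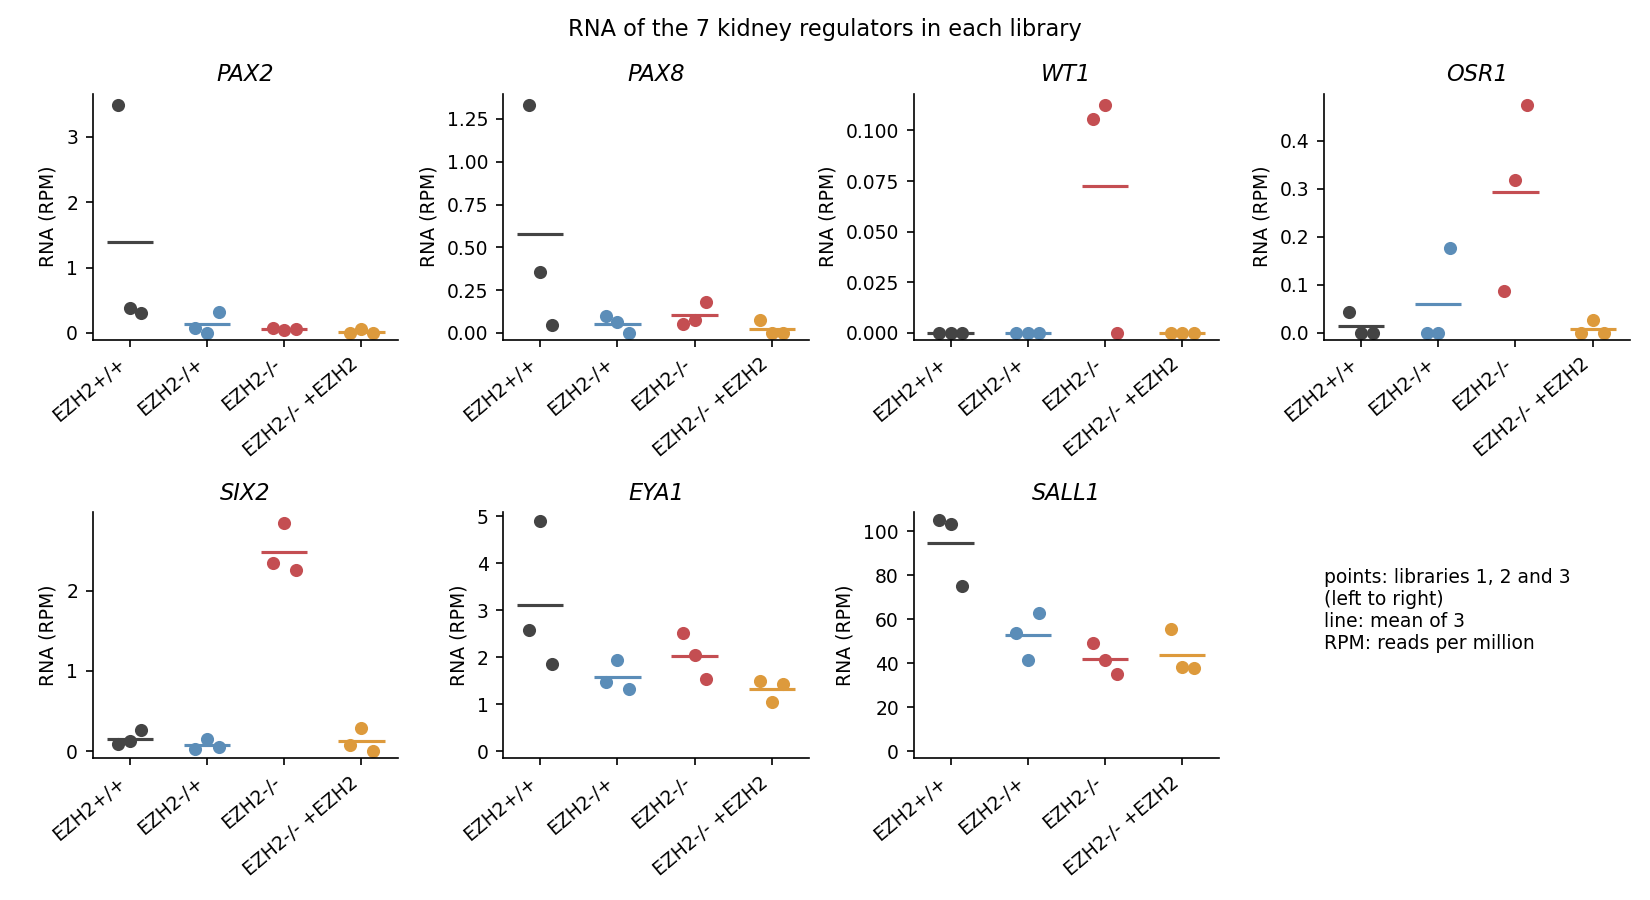
RNA level of each of the 7 members in each of the 12 libraries, in RPM on a linear axis that differs between panels, with the 4 genotypes along the horizontal axis, 1 point per library and a line at the mean of 3. The 3 EZH2-/- libraries of SIX2 (2.26 to 2.83 RPM) lie above all 9 others, and the 3 EZH2+/+ libraries of SALL1 (75.2 to 105 RPM) lie above all 9 others.

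What the loss of EZH2 changed relative to the unedited line was asked by comparing EZH2-/- with EZH2+/+ cells. SIX2 was higher in the null cells and SALL1 was lower, while EYA1 did not pass the test. Over all genes tested, 12.8% were called higher and 18.9% lower. OSR1 had more reads in null cells and PAX2 fewer, with adjusted p-values under 0.05 that carry the limit of the filter, and PAX8 had a higher one.

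SIX2, the nephron progenitor factor, had 4, 5 and 12 reads (0.0888, 0.127 and 0.262 RPM) in the EZH2+/+ libraries and 133, 151 and 76 reads (2.34, 2.83 and 2.26 RPM) in the EZH2-/- libraries. In EZH2-/+ cells it had 1, 7 and 3 reads, and in EZH2-/- +EZH2 cells 3, 11 and none. The null libraries were alone in being high, and they overlapped with no other genotype. The fitted difference from EZH2+/+ was 3.36 (SE 0.42, 95% interval 2.45 to 4.27, adjusted p = 0.000161). From reads summed over the libraries of a genotype, the SIX2 level in null cells was 15.5 times that in EZH2+/+, 32.6 times that in EZH2-/+ and 18.1 times that in EZH2-/- +EZH2.

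OSR1, the early intermediate mesoderm factor, had 5, 17 and 16 reads (0.0880, 0.319 and 0.475 RPM) in the null libraries. The EZH2+/+ libraries held 2, 0 and 0 reads, the EZH2-/- +EZH2 libraries 0, 1 and 0, and the EZH2-/+ libraries 0, 0 and 10. The null libraries did not overlap with the EZH2+/+ or restored ones, but 1 EZH2-/+ library (0.178 RPM) lay within the range of the null libraries. Against EZH2+/+ the difference was 1.47 (SE 0.43, 95% interval 0.54 to 2.40, adjusted p = 0.0206), for a gene that is in the table because of its null libraries. Without 1 of 4 libraries in turn (EZH2+/+ replicates 2 and 3, EZH2-/- replicates 2 and 3) the adjusted p was 0.0558 to 0.0817.

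WT1 had 6, 6 and 0 reads in the null libraries and none in the other 9. A count of 0 over a genotype allows up to 3 reads. With 3 reads put there, the summed level in null cells was 3.62 times that in EZH2+/+, 3.99 times that in EZH2-/+ and 2.82 times that in restored cells. These ratios leave out the counting error of the 12 null reads and the spread between libraries, so they are no lower limits. WT1 was not tested in the filtered table. With every gene kept that had a read in any library, its difference from EZH2+/+ had an adjusted p of 0.0296 and that from restored cells 0.179 (limma), the first in a fit that called 10% of 27443 genes higher. WT1 enters that fit only through the null libraries, so these values are no support for a difference. WT1-AS, a gene on the other strand that shares 113 bases with WT1, had 0, 1 and 2 reads in the null libraries, and the counting did not use strand.

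PAX2 went the other way. It had 157, 15 and 14 reads (3.49, 0.380 and 0.306 RPM) in the EZH2+/+ libraries, 3, 0 and 18 in EZH2-/+, 4, 2 and 2 in EZH2-/- and 0, 2 and 0 in EZH2-/- +EZH2. The EZH2+/+ libraries lay above all null and all restored libraries, although EZH2+/+ replicate 1 stood far above the other two. The difference of null from EZH2+/+ was -2.52 (SE 0.69, 95% interval -4.01 to -1.02, adjusted p = 0.0153), for a gene that is in the table because of its EZH2+/+ libraries, and without EZH2+/+ replicate 1 it was -1.51 (adjusted p = 0.0351, limma). The adjusted p was over 0.05 in limma-voom on the recovered reads (adjusted p = 0.0626), with a pseudocount of 1 RPM (0.0572) and without null replicate 2 (0.0523).

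PAX8, the close relative of PAX2, had 60, 14 and 2 reads (1.33, 0.355 and 0.0437 RPM) in EZH2+/+, 4, 3 and 0 in EZH2-/+, 3, 4 and 6 in EZH2-/- and 3, 0 and 0 in EZH2-/- +EZH2. The same EZH2+/+ library was highest for both genes, and for PAX8 the EZH2+/+ libraries overlapped with every other genotype. The difference of null from EZH2+/+ was -1.22 (SE 0.63, 95% interval -2.57 to 0.14, adjusted p = 0.157), and it passed the threshold without EZH2+/+ replicate 3 (-2.05, adjusted p = 0.0108, limma). PAX8-AS1, on the opposite strand across most of PAX8, had 15, 3 and 0 reads in EZH2+/+ and 3, 4 and 5 in EZH2-/-, so part of the PAX8 reads may belong to it.

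SALL1 was expressed in all 12 libraries. Its level was 105, 103 and 75.2 RPM in EZH2+/+, 53.8, 41.7 and 62.7 in EZH2-/+, 49.3, 41.5 and 35.4 in EZH2-/-, and 55.6, 38.4 and 37.8 in EZH2-/- +EZH2. The unedited line was high and the 3 edited genotypes lay together below it, with no overlap. The difference of null from EZH2+/+ was -1.16 (SE 0.21, adjusted p = 0.00148) against a median of -0.13 over all genes tested. Rescaling the libraries by median ratios brought that median to -0.01 and the SALL1 difference to -1.04 (adjusted p = 0.00303, limma).

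EYA1 had 2.58, 4.89 and 1.86 RPM in EZH2+/+, 1.47, 1.94 and 1.32 in EZH2-/+, 2.52, 2.05 and 1.54 in EZH2-/- and 1.49, 1.05 and 1.44 in EZH2-/- +EZH2. The null and EZH2+/+ libraries overlapped. Their difference was -0.50 (SE 0.34, 95% interval -1.23 to 0.23, adjusted p = 0.278).

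Whether libraries of both genotypes overlap needs no model, although the filter bears on OSR1 and PAX2 here too. SIX2 and OSR1 had every null library above every EZH2+/+ library, as did 20.7% of all genes tested. PAX2 and SALL1 had every null library below, as did 29.2%. SIX2 was the tested member whose null libraries exceeded all 9 others, as in 7.49% of genes, and SALL1 the one whose EZH2+/+ libraries did so, as in 6.02%.

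The study's own contrast sets null cells against the same kind of cells with EZH2 restored. Whether both came from the same null line is not given by the labels. The restored cells also had doxycycline and held more EZH2 RNA than the unedited line. Effects of clone, doxycycline, excess EZH2 and the return of EZH2 cannot be told apart in this contrast. Here SIX2 was the member called. It was higher in null cells by 3.60 (SE 0.42, 95% interval 2.69 to 4.51, adjusted p = 0.00133). Over all genes, 2.84% were called higher and 0.556% lower. OSR1 was higher by 1.47 (SE 0.43) with an adjusted p of 0.0876, and it passed in the fit with the replicate number as a block (adjusted p = 0.0381, a fit that called 9.55% of genes in either direction against 3.39% without the block). PAX2, SALL1 and PAX8 were not called here. PAX2 differed by 0.18 (95% interval -1.31 to 1.67, adjusted p = 0.927), SALL1 by -0.05 (-0.51 to 0.40, 0.930) and PAX8 by 0.44 (-0.92 to 1.79, 0.770), the intervals leaving room for sizeable changes of PAX2 and PAX8 in either direction. EYA1 differed by 0.57 (-0.16 to 1.30, 0.426), although its null libraries lay above all restored ones, as did those of SIX2 and OSR1 and of 13.5% of genes.

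Restored and unedited cells were then compared. SALL1 was lower in the restored cells, by -1.11 in log2 difference (SE 0.21, adjusted p = 0.00626), in a comparison that called 3.36% of genes higher and 6.85% lower. PAX2 differed by -2.70 (SE 0.69, adjusted p = 0.0268). That adjusted p was 0.0819, 0.0780 and 0.0537 without each restored library in turn, 0.0652 without EZH2+/+ replicate 1 and 0.111 in limma-voom. EYA1 differed by -1.07 (SE 0.34, adjusted p = 0.0625, and 0.0262 with the replicate block, a fit that called 22.2% of genes against 10.2%), and PAX8 by -1.66 (SE 0.63, adjusted p = 0.116). SIX2 differed by -0.24 (95% interval -1.15 to 0.68, adjusted p = 0.772) and OSR1 by 0.00 (-0.93 to 0.93).

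EZH2-/+ cells stand between the line and its null derivative in the order of editing. Against EZH2+/+, no member was called by limma, in a comparison that called 0.179% of genes higher and 0.986% lower, and none was called by limma-voom. At an unadjusted p under 0.05 there were 4 members, all with negative differences, and 2199 genes in all. They were SALL1 (-0.85, SE 0.21, adjusted p = 0.0869, and 0.0237 with the replicate block, a fit that called 2.95% of genes against 1.16%), PAX2 (-2.11, SE 0.69, 0.228), PAX8 (-1.54, SE 0.63, 0.381) and EYA1 (-0.84, SE 0.34, 0.375). The EZH2+/+ libraries of SALL1 did not overlap with those of EZH2-/+. Null cells were in turn higher than EZH2-/+ cells for SIX2, by 3.93 (SE 0.42, adjusted p = 0.000101), while 10.5% of genes were called higher and 8.23% lower. OSR1 was higher by 1.16 with an adjusted p of 0.0782, and 0.0407 with the replicate block (32.5% of genes called against 18.7%). The other 4 tested members differed by -0.41 to 0.34, none past the threshold.

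**Figure D2:**
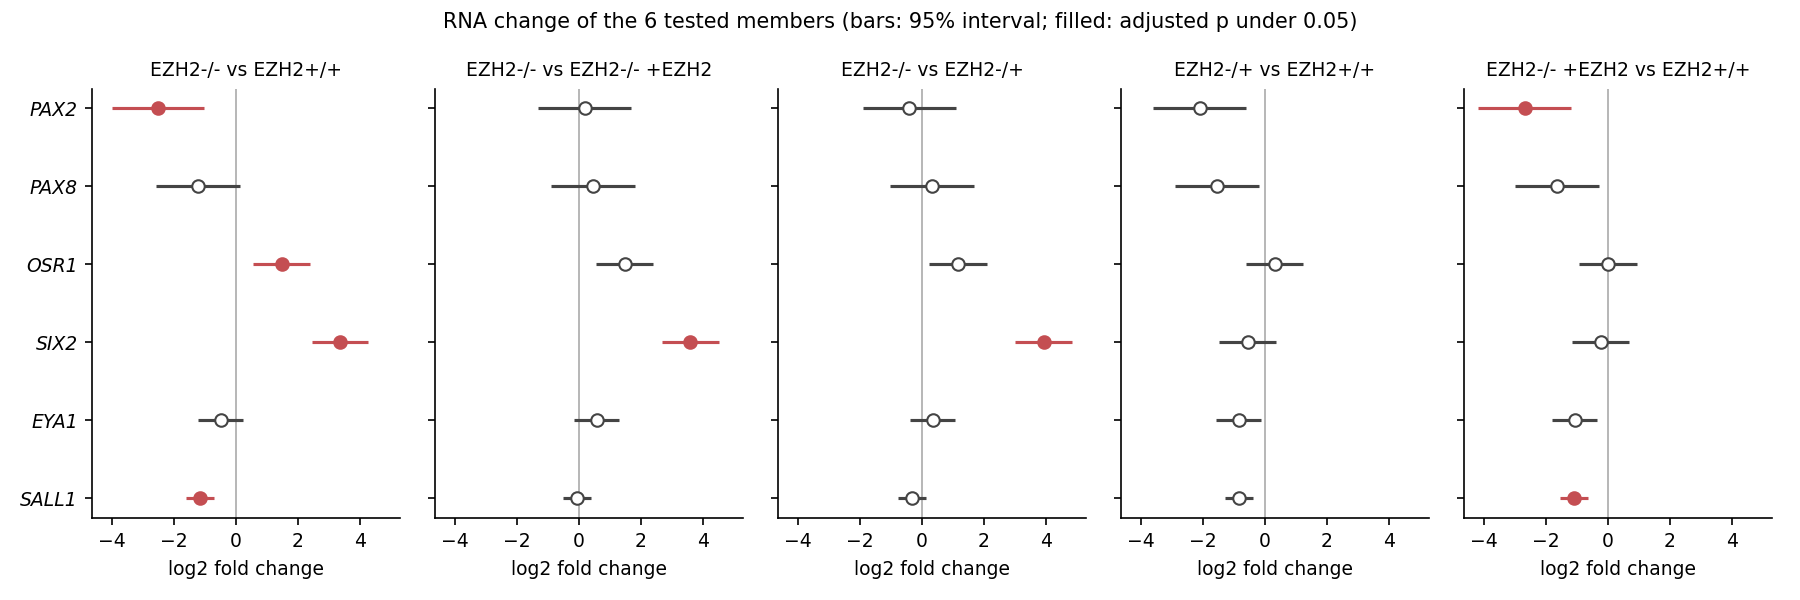
Fitted difference in log2(RPM + 0.1) of the 6 tested members in 5 comparisons (1 panel each, genes along the vertical axis), with bars for 95% intervals and filled points where the adjusted p was under 0.05. SIX2 is high in all 3 comparisons that have the null cells first (3.36, 3.60 and 3.93), and SALL1 is low in all 3 that have EZH2+/+ second (-1.16, -1.11 and -0.85, the last not called).

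The chromatin table holds log2 RPM in windows reaching 2.5 kb to each side of an annotated transcript start (GRCh38, Ensembl), and for each gene the window with the most H3K27me3 in EZH2+/+ cells is described. For each histone mark and genotype the labels list 2 replicates, while the study describes an average over more. The steps of the values fit 2 libraries of about 3430000 to 20750000 reads each, and 1 of about 93190000 for EZH2, and the counting errors given here rest on that inference. The table gives 1 value per genotype and mark, so a difference has a counting error but no replicate error and was not tested. A promoter was taken as marked where its H3K27me3 passed the limit used in the study, 5.36 RPM in a 5 kb window, and input did not. Applied to the described window of each gene name, this gave a larger marked set than the study reports. By this limit 5 of the 7 members were marked in EZH2+/+ cells, namely PAX2, PAX8, WT1, OSR1 and SIX2, against 17.5% of 35683 gene names.

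The 5 marked members carried some of the densest H3K27me3 of the genome's promoters. In EZH2+/+ cells PAX2 had 52.5 RPM (chr10:100746350-100751350), WT1 49.5 (chr11:32433130-32438130), OSR1 46.8 (chr2:19356153-19361153), SIX2 41.0 (chr2:45006930-45011930) and PAX8 32.8 (chr2:113276419-113281419). Each exceeded 98.6% to 99.8% of all promoters. Input in these windows and the other members' was 0.84 to 2.21 RPM over the genotypes. EZH2 binding in the same cells was 7.98 RPM at PAX2, 8.97 at WT1, 6.42 at OSR1, 5.16 at SIX2 and 4.08 at PAX8, above 98.7% to 99.8% of promoters. SALL1 (chr16:51148867-51153867) and EYA1 (chromosome 8) stood apart, with 2.15 and 1.04 RPM of H3K27me3 and 0.998 and 0.161 RPM of EZH2. SALL1 and EYA1 were also the members with the most RNA reads, a number that grows with transcript length.

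H3K27me3 was lower at all 5 marked members in EZH2-/- cells. It stood at 3.22 RPM at PAX2, 4.17 at WT1, 4.00 at OSR1, 1.66 at PAX8 and 1.06 at SIX2. The values of PAX8 and SIX2 were within the range of input, and those of PAX2, WT1 and OSR1 stayed above it. For PAX2 this held in the described window alone. Its other windows, also marked in EZH2+/+ cells, had 0.946 to 1.59 RPM in EZH2-/- cells, within the range of input. The log2 difference from EZH2+/+ was -3.99 at PAX2 (counting SE 0.16), -4.22 at PAX8 (0.22), -3.54 at WT1 (0.14), -3.52 at OSR1 (0.15) and -5.14 at SIX2 (0.27). A fall of more than 1 was seen at 48% of all promoters and at 98.3% of those marked in EZH2+/+ (one of more than 0.5 at 98.8%), so the fall itself was general. The fall at SIX2 was deeper than at most, since 2.98% of 6235 marked promoters fell further, while OSR1 and WT1 lay near the middle of that range. The median over the 7 members was -3.54, that of marked promoters -3.67 and that of all promoters -0.94.

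With EZH2 restored, H3K27me3 was 50.2 RPM at PAX2, 42.9 at WT1, 46.9 at OSR1, 39.3 at SIX2 and 30.5 at PAX8. These levels lay close to those of the unedited line. None of the 5 was lower by more than 1 on the log2 scale, as 5.6% of all and 6.96% of marked promoters were. In EZH2-/+ cells the same promoters had 61.3, 58.5, 55.1, 48.5 and 38.7 RPM in the same order, each 0.22 to 0.24 higher than EZH2+/+ on the log2 scale, against a median of 0.06 for marked promoters. SALL1 differed from the others, with 5.77 RPM in EZH2-/+ and 5.18 in EZH2-/- +EZH2 against 2.15 in EZH2+/+ and 1.52 in EZH2-/-. Its difference from EZH2+/+ was 1.38 (counting SE 0.26) in EZH2-/+ and 1.23 (counting SE 0.26) in restored cells. A rise of more than 1 was seen at 0.653% and 1.18% of promoters. The EZH2-/+ value is just over the limit for a marked promoter and the restored value just under it. The EZH2+/+ and EZH2-/- values at SALL1 are low (input 1.04 and 0.837 RPM), and the median difference between these genotypes over all promoters was -0.94. SALL1 RNA was lower than in EZH2+/+ in all 3 edited genotypes, and a link with H3K27me3 was not tested.

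**Figure D3:**
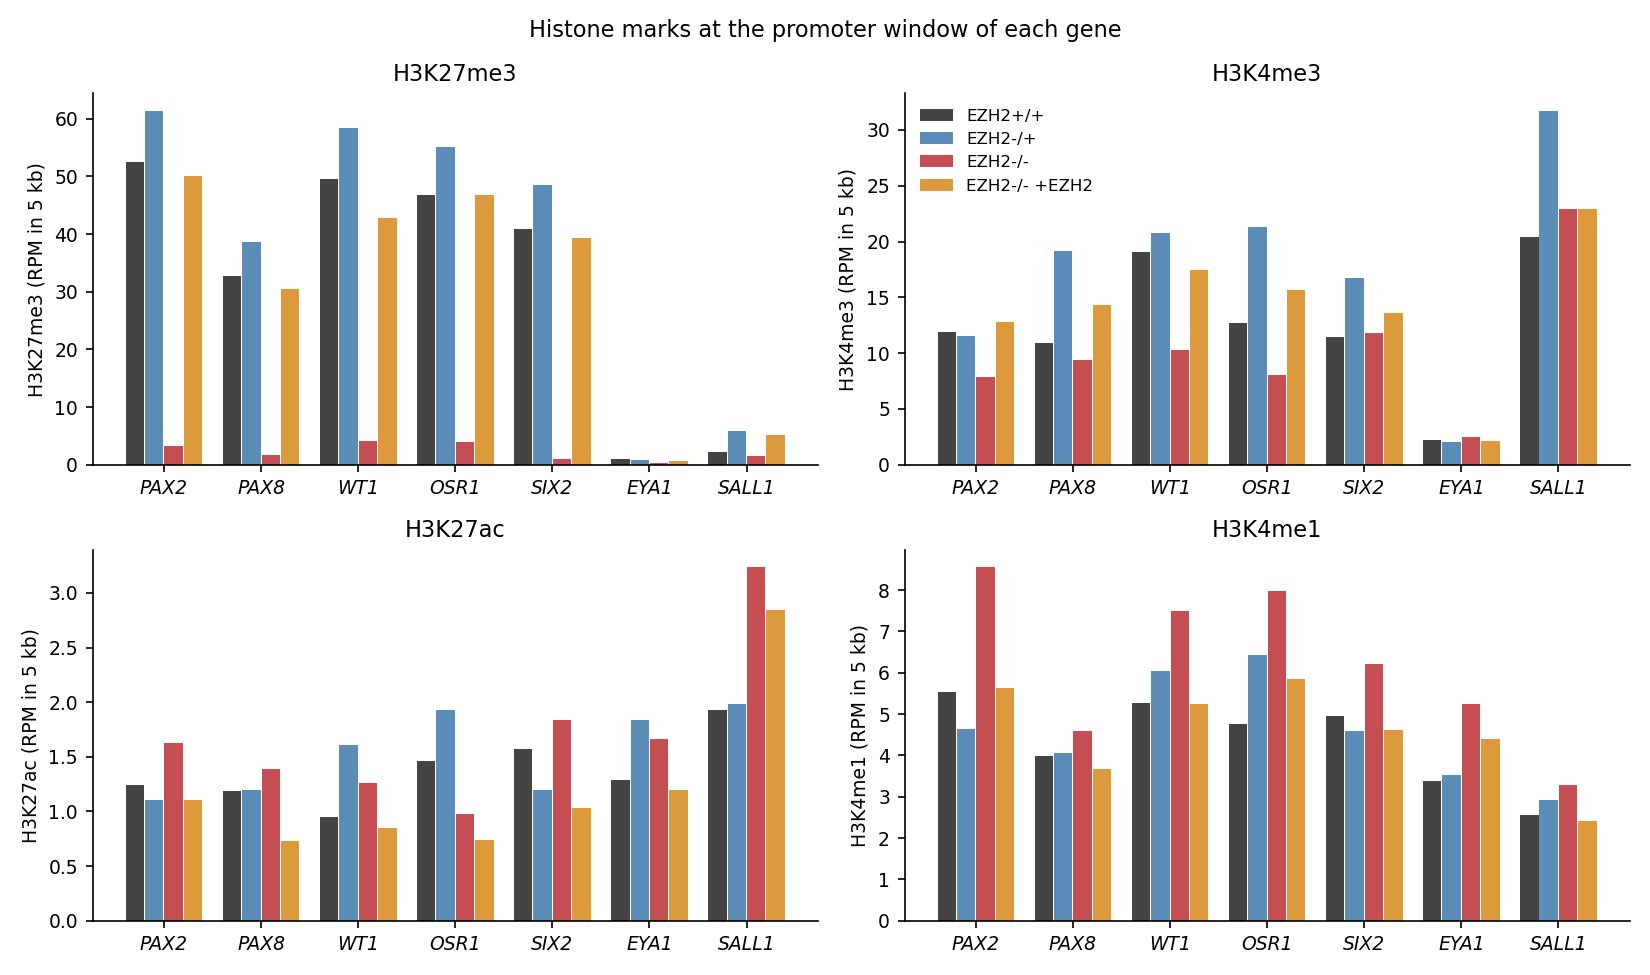
Level of H3K27me3, H3K4me3, H3K27ac and H3K4me1 at the promoter window of each member in the 4 genotypes, in RPM per 5 kb window on linear axes, with 1 bar per genotype and no error bar since the table holds 1 value each. H3K27me3 of PAX2, PAX8, WT1, OSR1 and SIX2 drops from 32.8 to 52.5 RPM in EZH2+/+ to 1.06 to 4.17 RPM in EZH2-/- and is at 30.5 to 50.2 RPM in EZH2-/- +EZH2.

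H3K4me3 was present at the marked members in every genotype. In EZH2+/+ cells it was 11.9 RPM at PAX2, 10.9 at PAX8, 19.1 at WT1, 12.7 at OSR1 and 11.5 at SIX2, and in EZH2-/- cells 7.87, 9.39, 10.3, 8.03 and 11.8. It was thus lower in the null cells at WT1 (-0.89, counting SE 0.16), OSR1 (-0.66, 0.19) and PAX2 (-0.59, 0.20), 3 of the 5, where 17.3% of marked promoters were lower by more than 0.5. At PAX8 the difference was -0.21 (0.20) and at SIX2 0.04 (0.19). Centred on promoters below the H3K27me3 limit, the median over the 7 members moved from -0.21 to 0.00, so the sign of this median depends on the scaling. The EZH2+/+ H3K4me3 libraries were the shallowest of the set by those steps. Restored cells had 12.8 RPM at PAX2, 17.5 at WT1, 15.7 at OSR1, 14.3 at PAX8 and 13.6 at SIX2. Null minus restored, the difference was -0.95 at OSR1, -0.76 at WT1, -0.69 at PAX2, -0.60 at PAX8 and -0.21 at SIX2 (counting interval -0.43 to 0.02), beside a median of -0.10 over marked promoters (quartiles -0.31 to 0.07). SALL1 held 20.4 to 31.7 RPM over the genotypes, and in EZH2+/+ cells it exceeded 99.0% of promoters. EYA1 had 2.07 to 2.51 RPM in its described window, but its windows around the first transcript starts held up to 7.80 RPM in EZH2+/+ cells.

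H3K27ac stayed low at the promoters where H3K27me3 fell. In EZH2+/+ and EZH2-/- cells respectively, H3K27ac was 1.57 and 1.84 RPM at SIX2 (log2 difference 0.22, counting SE 0.35), 1.24 and 1.62 at PAX2, 1.19 and 1.39 at PAX8, 0.95 and 1.26 at WT1, and 1.46 and 0.97 at OSR1. In these windows none of the 5 rose by more than 1 against EZH2+/+, as 9.18% of all and 23.2% of marked promoters did. None rose by more than 0.5, as 62.2% of marked promoters did. OSR1 was lower in its H3K27ac difference than all but 2.31% of marked promoters, and SIX2 than all but 19.4%. These levels were within the range of input, so a change at them is hard to see at this depth. The window at the first PAX2 start, also marked, had 0.953 RPM in EZH2+/+ and 1.95 in EZH2-/- cells. Null minus restored, the median H3K27ac difference over the 5 described windows was 0.52, beside 0.67 over marked promoters. SALL1, with the most H3K27ac among the described windows, had 1.93 RPM in EZH2+/+ and 3.24 in EZH2-/- (0.72, counting SE 0.29), beside a median of 0.31 over all promoters. Unmarked PAX8 windows further downstream held up to 2.97 RPM in EZH2+/+ and 4.06 in EZH2-/- cells. SALL1 RNA was lower in null cells, and a link was not tested.

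H3K4me1 differed by 0.20 to 0.73 on the log2 scale between null and EZH2+/+ cells at the 7 members. The difference was 0.73 at OSR1, 0.62 at PAX2, 0.50 at WT1, 0.32 at SIX2 and 0.20 at PAX8, 0.62 at EYA1 and 0.34 at SALL1. None reached 1, as 2.84% of marked promoters did, and PAX2, WT1 and OSR1 passed 0.5, as 31.4% did. The median over the 7 members was 0.50 and that of marked promoters 0.36.

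Several members have start sites far apart, and the mark did not cover them alike. All 7 listed windows of PAX2 were marked in EZH2+/+ cells, all 3 of OSR1 and the single one of SIX2. At PAX8 5 of 11 windows were marked, and the windows further downstream held 2.46 to 3.07 RPM. At WT1 6 of 8 were marked, and both others, downstream in the gene, held 2.38 and 3.31 RPM. The printed WT1 stretches come from both sides of this line. The window of the CG-rich one held 46.6 RPM of H3K27me3 and 5.01 RPM of EZH2, and that of the CG-poor one 3.31 and 0.204. None of the 11 EYA1 windows or 4 SALL1 windows was marked in EZH2+/+ cells. Windows of a gene often overlap, so they are not independent measurements.

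**Figure D4:**
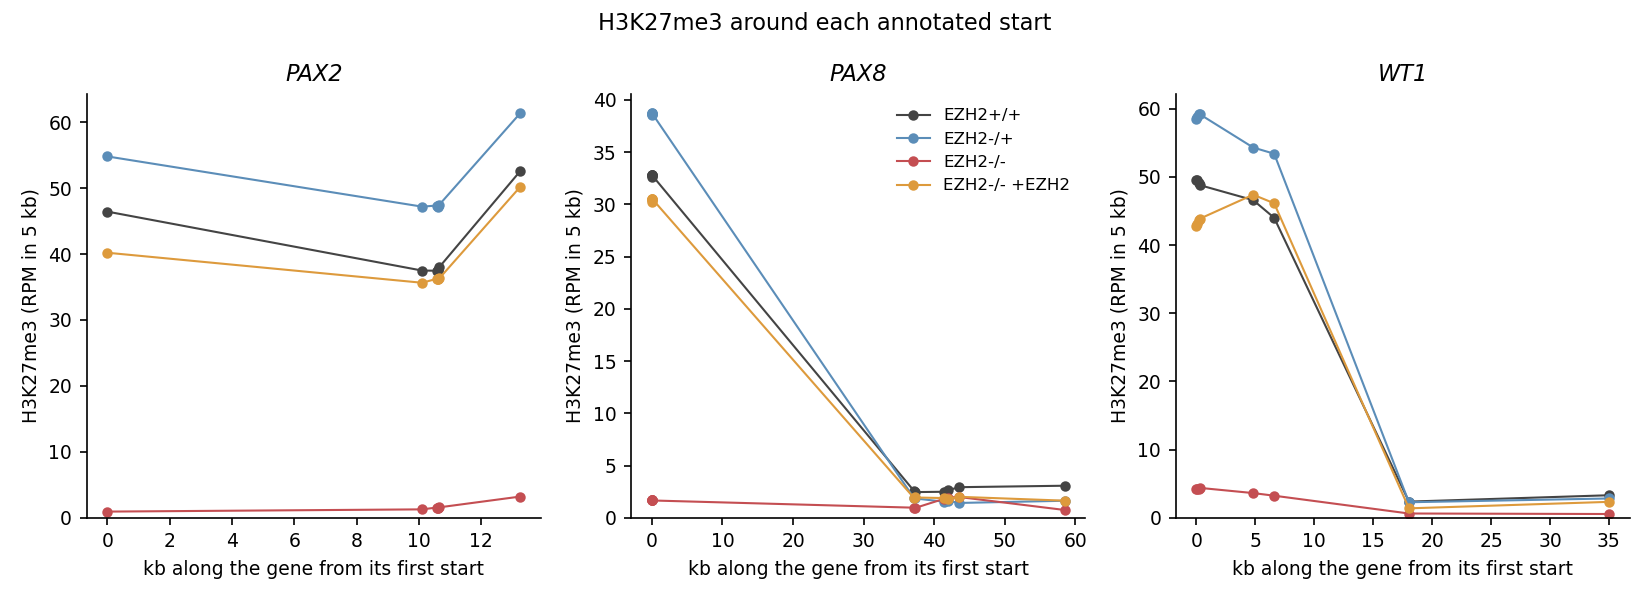
H3K27me3 in RPM per 5 kb window (linear axis from 0) in each listed promoter window of PAX2, PAX8 and WT1, against the distance in kb of its start site from the gene's first start site, with 1 line for each of the 4 genotypes. At PAX8 and WT1 the windows near the first start hold over 30 RPM in EZH2+/+ cells and those downstream 2.38 to 3.31 RPM, and the EZH2-/- points lie low throughout.

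The RNA and chromatin of the marked members can be set side by side. H3K27me3 was lower at all 5 in null cells. Against EZH2+/+ the RNA of SIX2 was called higher, the fitted difference was positive for OSR1 and negative for PAX2 and PAX8, whose place in the table rests on 1 genotype, and WT1 had too few reads to be tested. Among 4676 tested genes with a marked promoter, 19.5% were called higher and 18.8% lower in this comparison. Against restored cells the shares were 7.83% and 0.47%. Among the described windows, that of SIX2 had the deepest fall in H3K27me3 and a kept level of H3K4me3. SIX2 was also the marked member with the largest fitted RNA difference between null and EZH2+/+ cells. PAX8 had the next deepest fall among these windows and an H3K4me3 difference near its counting error, and its fitted RNA difference was negative. The order depends on the window described. At the first PAX2 start H3K27me3 was 46.4 RPM in EZH2+/+ and 0.946 in EZH2-/- cells, a deeper fall than at SIX2, and the fitted RNA difference of PAX2 was negative. A link between these marks and the RNA was not tested. The SIX2 RNA level in null libraries was 2.26 to 2.83 RPM.

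Relatives of the members by sequence, 18 PAX, EYA, SALL, OSR and homeodomain genes, were examined next, and 15 of them were tested. In null against EZH2+/+ cells, 2 were higher and 4 were lower (beside 12.8% and 18.9% of all genes). OSR2, the relative of OSR1, rose by 1.84 (SE 0.33, adjusted p = 0.00148), with 13, 31 and 14 reads in null and 0, 3 and 0 in EZH2+/+ libraries. As for the members, the filter favours a difference of genes with few reads outside 1 genotype, so p-values and counts of the relatives are a description. PAX5 rose by 1.52. The genes called lower were PAX3 (-2.61), PAX6 (-2.57) and PAX7 (-1.70), factors of the neural tube and neural crest, and SALL2 (-0.67). PAX6 had 8.48, 8.11 and 3.37 RPM in EZH2+/+ and 0.510, 1.76 and 0.920 in EZH2-/- libraries. The median difference of the 15 genes was -0.14, beside -0.13 for all genes. Rescaling by median ratios left 2 higher and 3 lower. Against restored cells 3 were called higher, namely PAX5 (2.00), OSR2 (1.91) and EYA2 (1.26), and none lower, with a median of 0.63 against 0.02 for all genes. Over all genes 2.84% were called higher there and 0.556% lower. At an adjusted p under 0.05 limma-voom called none of the 15 in that comparison, the count was 0 without null replicate 2, and with the replicate block it was 3 higher and 1 lower.

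Lists of other genes of kidney development were examined as well, 62 genes of which 53 were tested. Among them too, a gene with few reads outside 1 genotype can enter the tests through that genotype. The counts, and the p-values of the genes named further on, are therefore a description. Against EZH2+/+ cells 17 were higher and 11 lower in null cells (beside 12.8% and 18.9% of all genes), with a median of 0.46 against -0.13 for all genes. That median was 0.158 without null replicate 2 and 0.698 without null replicate 1. Among the 34 with a mean of at least 1 RPM, 9 were higher and 9 lower, with a median of 0.0784. Against restored cells 15 were higher and none lower, beside 2.84% and 0.556% of all genes, with a median of 1.07 against 0.02. The second count depended on the libraries and the model. It was 22 higher and 1 lower with the replicate block, 18 without null replicate 1, 4 to 9 without null replicate 2 or 3 or any 1 restored library, 6 in limma-voom and 3 of 34 with a mean of at least 1 RPM. By list, 5 of 13 nephric duct and ureteric bud genes rose and 3 fell against EZH2+/+, 4 of 15 mesenchyme and progenitor genes rose and 3 fell, 5 of 17 nephron segment and podocyte genes rose and 4 fell, and 4 of 9 stroma genes rose and 1 fell. Both directions thus occurred in each list.

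The 6 largest rises, taking for each gene the larger of its differences from EZH2+/+ and from restored cells, were those of LHX1, FOXC2, FOXC1, FGF8, TBX18 and CITED1. LHX1, a LIM-homeodomain factor of the intermediate mesoderm and nephric duct, had 1.24, 0.558 and 0.0437 RPM in EZH2+/+ and 7.56, 18.6 and 10.4 in EZH2-/- libraries (4.51, SE 0.93, adjusted p = 0.00332). FOXC2, a forkhead factor of mesoderm and kidney mesenchyme, had 2 reads in all EZH2+/+ libraries together and 93, 211 and 76 in null libraries (4.30, adjusted p = 7.54e-05). Its relative FOXC1 was 4.14 higher in null than in restored cells, with 2.34, 3.60 and 2.52 RPM against 0.103, 0.0536 and 0.0400. FGF8, a secreted growth factor of the primitive streak and of forming nephrons, rose by 3.58, CITED1, a marker of nephron progenitors, by 3.39, and TBX18, a factor of the ureteric mesenchyme, by 3.50 against restored cells. FGF8 was also high in restored cells (3.16 to 15.8 RPM, against 1.46 to 2.26 in EZH2+/+), and its null and restored libraries differed by 1.43 (adjusted p = 0.284).

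The 4 largest falls by the same reckoning were those of CDH6, ROBO2, WNT4 and LRP2. LRP2, the endocytic receptor of the proximal tubule, had 48.2, 37.5 and 20.4 RPM in EZH2+/+ and 4.03, 4.92 and 3.44 in EZH2-/- libraries (-2.99, adjusted p = 0.000583). CDH6, a cadherin of the early nephron, differed by -3.61, ROBO2, the SLIT receptor that limits ureteric bud outgrowth, by -3.30, and WNT4, the signal that turns mesenchyme into nephron epithelium, by -3.29. WNT4 had 17.8 RPM in EZH2+/+ replicate 1 and 1.45 and 4.50 in the others, and this was the library that was also highest for PAX2 and PAX8. In restored cells these 4 genes were lower than in EZH2+/+ as well, by -2.53 to -3.43 in log2 difference, each called. None of the 4 was called between null and restored cells. The summed levels of pluripotent cell, mesoderm, endoderm and neuroectoderm markers given above were higher in every null than in every EZH2+/+ library, those of fibroblast markers overlapped, and their part in the results was not tested. In null against EZH2+/+ cells, 12.8% of all genes were called higher and 18.9% lower. Of 10 pluripotent cell markers 6 were called higher and 1 lower there, and of 10 mesoderm markers 4 and none. Of 8 endoderm markers 5 were called higher and none lower, and of 9 fibroblast markers 5 and 1. Of 6 neuroectoderm markers 1 was called higher (NES) and 2 lower (PAX6 and SOX1), with a median difference of -0.38, although their sum was higher. Against restored cells, where 2.84% of all genes were called higher, no pluripotent cell marker was called. There 2 mesoderm, 2 endoderm, 1 neuroectoderm and 4 fibroblast markers were called higher and none lower. No marker was without reads in all null libraries or in all EZH2+/+ libraries. DCN and MSGN1 had none in EZH2-/+ or restored cells, and NEUROG2 none in restored cells.

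**Figure D5:**
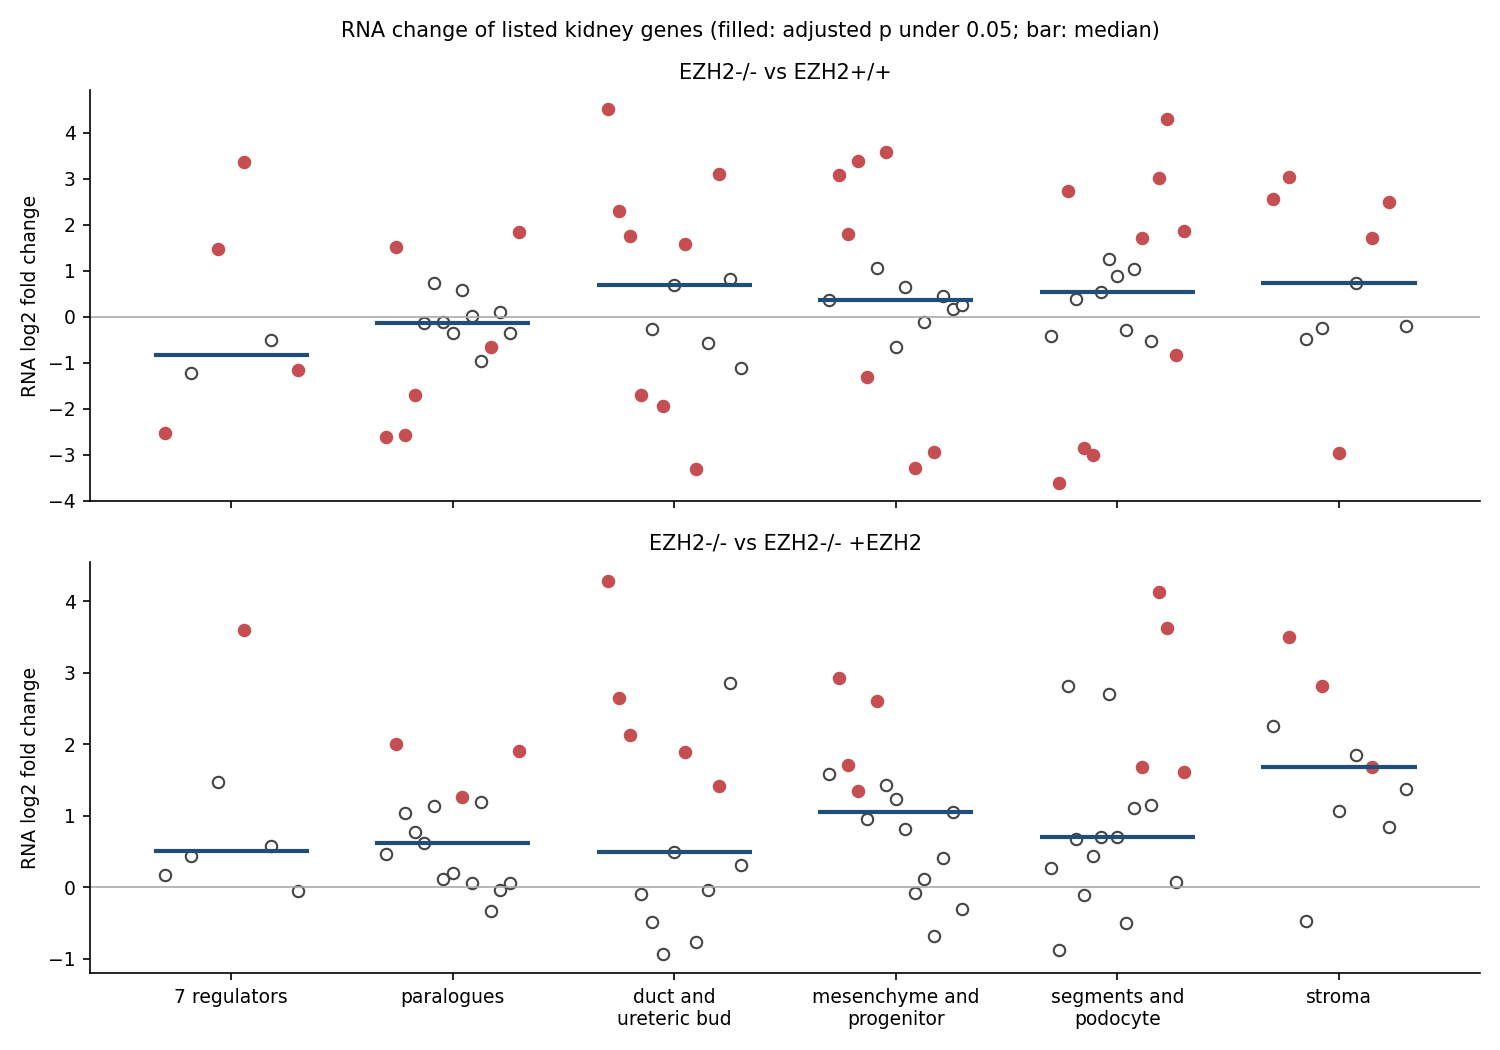
Fitted difference in log2(RPM + 0.1) of each tested gene among the 7 members, their paralogues and the 4 kidney development lists, in null against EZH2+/+ and null against restored cells, 1 point per gene, filled where the adjusted p was under 0.05, with the list median as a bar. In the first comparison called genes lie on both sides of 0 in every group (17 higher and 11 lower over the kidney lists), and in the second all 15 called kidney genes lie above 0.

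Which genes followed each member most closely over the 12 libraries is a description, since the libraries share genotype and depth. Among 15481 candidates averaging 1 RPM or more, SIX2 was most like ANKH (Pearson r = 0.953) and MFSD1 (0.950), OSR1 most like RP1-4G17.5 (0.929) and NDRG4 (0.926), and SALL1 most like BCL7A (0.973) and ZNF570 (0.970). PAX2 was most like TPBG (0.954) and MAPK4 (0.917), PAX8 most like DTX4 (0.871) and KLHDC8B (0.847), and EYA1 most like PARM1 (0.902) and ARHGAP24 (0.902). Among the members themselves, PAX2 was closest to SALL1 (0.833) and PAX8 (0.795), OSR1 was closest to SIX2 (0.711), and SALL1 and SIX2 had an r of -0.403.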

How the data were processed

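Both tables were used as the authors deposited them, as log2 RPM (reads scaled to the size of the library). The authors trimmed RNA-seq reads (TruSeq v2, unstranded) with Trim Galore and aligned them with TopHat2 2.0.12 to GRCh38. They counted these per gene in SeqMonk without regard to strand. For ChIP-seq they trimmed with Trim Galore 0.4.0, aligned with Bowtie2 2.2.5 and extended reads by 200 bases. They then dropped duplicates and counted 2.5 kb to each side of a start site. A gene without reads is held at 0.9 of a read. Histone ChIP was native and EZH2 ChIP crosslinked. The study's own test was DESeq2 on raw counts, which were not used here. Every column matched a sample.

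The deposited log2 values were returned to RPM, and reads were recovered from their steps, whose spacing gave each library's depth. The 20689 of 35805 rows that averaged 0.1 RPM or more over 12 libraries were fitted on log2(RPM + 0.1) with limma 3.58.1 (R 4.3.3, lmFit, eBayes with trend) over all 4 genotypes without a block, with Benjamini-Hochberg adjustment over all genes and a threshold of 0.05. The design had assumed linear RPM, and the values were in log2. The script was tested on simulated data. Only genes averaging 1 RPM or more were changed there, and same-numbered libraries shared no effect. The test therefore does not cover SIX2, PAX2, PAX8 and OSR1, which averaged less. The study calls its replicates biological, and the labels give only their numbers, so p-values measure the spread between these libraries. Same-numbered libraries of different genotypes deviated together from their genotype means (18 of 18 pairs with r over 0.1, range 0.127 to 0.691, median 0.399, against a median of -0.296 for the other 36 pairs), so the fit with the number as a block is given where it changes a member's call. For the lists in null against EZH2+/+ cells, the block gave 2 relatives higher and 5 lower, and 18 kidney genes higher and 12 lower. ChIP values have no replicates, and their errors cover counting only, as do the limits of 3 reads for a count of 0.

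The members and all gene lists were chosen with earlier results of these data known. The text names the 7 members, their paralogues, EZH2, overlapping genes, marker genes, the 6 largest rises and 4 largest falls among called genes of the kidney lists (null cells against EZH2+/+ or restored cells, whichever was larger), and for each tested member the 2 genes with the highest Pearson r over the 12 libraries. A gene's promoter was its window with the most H3K27me3 in EZH2+/+, and 2 windows without a gene name were left out. Some listed genes are not reported here. The alternatives tried were another pseudocount, filter, scaling, window, block, variance model and set of libraries, and limma-voom.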

Additional observations from a re-analysis of the deposited data

How the results depend on the processing

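Of 425 alternative values of the members' RNA differences, 389 kept their direction and their side of the threshold, 12 came to pass it, 14 no longer passed it and 10 changed sign, the last all among values that were not called. In null against EZH2+/+ cells SIX2 and SALL1 were called under every alternative in which they were tested, and SIX2 was not tested with a mean of at least 1 RPM. With that filter the count of members called fell from 4 to 1 (SALL1) there, to 0 against restored cells and to 0 against EZH2-/+ cells, since fewer genes were tested, and to 1 (SALL1) in restored against EZH2+/+ cells. Leaving out 1 library gave 2 to 4 called members in null against EZH2+/+ (2 without null replicate 2), 1 to 2 in null against restored (OSR1 added without null replicate 1), 1 to 2 in null against EZH2-/+ (OSR1 added without EZH2-/+ replicate 3 or null replicate 1), 0 to 1 in EZH2-/+ against EZH2+/+ (PAX8 without EZH2+/+ replicate 3, SALL1 without EZH2-/+ replicate 3) and 1 to 4 in restored against EZH2+/+ (PAX8 and EYA1 added without EZH2+/+ replicate 3, PAX2 lost without EZH2+/+ replicate 1 or any 1 restored library). The replicate block gave 2 in null against restored, 2 in null against EZH2-/+ and 1 in EZH2-/+ against EZH2+/+, and changed no other member's call than the 4 given with the results. No filter gave 2 in null against EZH2-/+ (WT1 added). Restored against EZH2+/+ gave 1 (SALL1) with a pseudocount of 1 RPM, with limma-voom and with only the 2 genotypes fitted. The cause was not tested for the other changes.

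Differences that changed sign were those of SALL1 between null and restored cells (-0.17 to 0.13 without 1 library each), PAX2 between null and EZH2-/+ (-0.80 to 0.11), OSR1 between EZH2-/+ and EZH2+/+ (-0.0901 to 0.519), OSR1 between restored and EZH2+/+ (-0.0513 to 0.0843, and -0.00039 with a pseudocount of 1 RPM) and SIX2 between restored and EZH2+/+ (-0.684 to 0.0846). For the median promoter change of the 7 members, H3K27me3 in null against EZH2+/+ was -3.54, -2.37 in the first listed window and -2.87 centred on promoters below the H3K27me3 limit. In restored against EZH2+/+ it was -0.07, -0.21 in the first listed window and 0.19 when centred. H3K4me3 in null against EZH2+/+ was -0.21 and 0.0031 when centred. Rescaling the libraries by median ratios (factors 0.939 to 1.10) changed the calls over all genes from 2646 higher and 3900 lower to 3436 and 2841 in null against EZH2+/+, and from 695 and 1417 to 1025 and 877 in restored against EZH2+/+, with the same numbers of members called.

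Count tests by edgeR and DESeq2 on recovered reads were planned and not run, because the deposited unit is a log2 value, and limma-voom and a fit with genes without a read set to 0 were added after seeing the data. Depth limits PAX2, PAX8, WT1 and OSR1, which rest on 0 to 18 reads in nearly every library.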

Other observations

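Among the relatives of the members, EYA4, another EYA phosphatase, was called lower in restored than in EZH2+/+ cells (-2.15, SE 0.53, adjusted p = 0.0232, limma) together with PAX3, PAX6 and PAX7, and none of the 15 tested was called higher there. With the replicate block 7 were called lower. In EZH2-/+ against EZH2+/+ cells PAX3 was called lower (-2.68, SE 0.47, adjusted p = 0.0173), with 26, 14 and 63 reads against 236, 299 and 102.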
